A study of Mus musculus with 2 samples.

Results

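The cytoskeleton and migration genes described here are Actb, Actg1, Vim, Lmna, Tmsb4x, Tmsb10, Cfl1, Pfn1, Coro1a and Capg. These 10 genes were taken by their symbols from the 24346 genes of 2 RNA-seq libraries and all 10 were listed in both. The rule that picks them uses no measured value, but the set was proposed with earlier results of these data known. The libraries were made from GFP+CD4+ cells, that is regulatory T cells (Tregs), of Foxp3-DTR-GFP (FDG) mice, in which the endogenous Foxp3 locus drives GFP. Mice were given 50 μg of bleomycin (BLM), a drug that injures the lung, into the trachea, and cells were sorted on day 15. One library came from spleen and one from lung, each from the pooled cells of 3 mice, and both tissues were from BLM-treated animals. The study's methods describe adult mice matched for age and sex. Lung tissue was digested with enzymes before sorting, and a step of that kind cannot be told apart from the tissue here. Because each tissue has 1 library, no difference between them could be checked against replicates, and p-values are left out.

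Levels are in FPKM, a read density per kilobase of transcript and per library, so that levels of different genes can be set side by side. T cells crawl by building a branched actin network at their front and taking it apart behind. Actin monomers are held in reserve by thymosins, handed to growing filament ends by profilin, and freed again from old filaments by cofilin together with coronin, whereas gelsolin family proteins cap filament ends. Vimentin forms a second, more flexible filament network in the cytoplasm, and lamins line the nucleus, whose stiffness affects how a cell squeezes through tissue.

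Actb and Actg1 encode the cytoplasmic β- and γ-actins, and Tmsb4x and Tmsb10 encode thymosin β4 and thymosin β10. Each pair is closely related, so the coding sequences are shown to let the reader see how far reads of one gene can be told from reads of the other. The first 120 of 1125 coding bases of Actb and Actg1 are printed from the GENCODE M21 transcripts (GRCm38), 5′ to 3′, with the 22 bases that differ in capitals.
Actb: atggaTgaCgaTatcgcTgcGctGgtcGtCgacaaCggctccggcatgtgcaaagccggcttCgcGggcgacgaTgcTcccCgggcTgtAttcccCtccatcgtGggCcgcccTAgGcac
Actg1: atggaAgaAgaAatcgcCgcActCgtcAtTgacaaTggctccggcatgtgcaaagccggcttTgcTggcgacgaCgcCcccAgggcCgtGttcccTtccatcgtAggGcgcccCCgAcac

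Over all coding bases, 128 differed between the actin genes, an identity of 88.6%, and the longest stretch without a difference was 62 bases. Actb and Actg1 shared 0 windows of 75 bases, the length of the reads, anywhere in their transcripts. The thymosin genes are shorter, and all 132 coding bases before the stop codon are printed in the same way, with 40 differences in capitals.
Tmsb4x: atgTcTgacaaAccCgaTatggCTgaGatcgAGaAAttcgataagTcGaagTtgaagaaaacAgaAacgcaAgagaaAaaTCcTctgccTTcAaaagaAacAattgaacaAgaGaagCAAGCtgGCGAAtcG
Tmsb10: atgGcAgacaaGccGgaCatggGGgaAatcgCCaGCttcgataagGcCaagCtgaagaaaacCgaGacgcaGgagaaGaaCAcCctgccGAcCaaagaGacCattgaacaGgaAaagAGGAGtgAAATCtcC

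Tmsb4x and Tmsb10 were 69.7% identical, with at most 10 equal bases in a row, and also shared 0 windows of read length. Copies elsewhere in the genome, and for Cfl1 mainly an overlapping gene, were a greater source of ambiguity than the paralogs. Of the windows of the Actg1 transcript, 54.5% also occurred in transcripts of other genes, 9 of those 10 genes being pseudogenes, and the pseudogene Gm12715 alone held 47.8% of the windows. For Tmsb10 the share was 32.8%, and the retrogene Gm9844 held 26.1%. Cfl1 had 16.5%, mostly in Snx32 (6.29 FPKM in spleen and 10.4 in lung), a gene of the other strand that overlaps it, and Actb 2.60%. No window of Tmsb4x, Pfn1, Coro1a, Capg, Vim or Lmna was found in another annotated gene. Gm12715 and Gm9844 had no row of their own in the files. How the authors placed reads that match several loci, or assigned reads where genes overlap, is not given in the sources used here. The levels of Actg1, Tmsb10 and Cfl1 are therefore the less certain ones. This search covered exact matches to annotated transcripts only.

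The 10 genes spanned the whole range from the most abundant transcript of the splenic library to a gene of low expression. Their FPKM summed to 20580 in spleen and to 33159 in lung, or 3.43% and 4.10% of the FPKM of each library. The genes Tmsb4x, Pfn1, Actg1, Coro1a, Cfl1, Tmsb10, Actb and Capg followed each other from the highest splenic level down, ahead of Vim, and Lmna was the lowest in both tissues. Of the 10 genes, 8 were higher in lung, 3 of these over 2-fold, and none was over 2-fold lower. Over the 12094 genes that reached 1 FPKM in either library, 51.5% were higher in lung, 17.8% over 2-fold higher and 15.5% over 2-fold lower. Among the 1106 genes with a mean of at least 100 FPKM, where all of these genes except Lmna lie, 75.1% were higher in lung, 14.1% over 2-fold higher and 2.71% over 2-fold lower. The count of higher members, 7 of 9 at that level, was thus near that of other abundant genes. The median log2 ratio of lung to spleen was 0.59 for the 10 genes and 0.34 for the 9 abundant ones, against 0.03 for genes of at least 1 FPKM and 0.36 for abundant genes. At the 20-fold threshold used in the study, 1.62% of all genes were higher in lung and 0 of the 10 genes were.

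**Figure D1:**
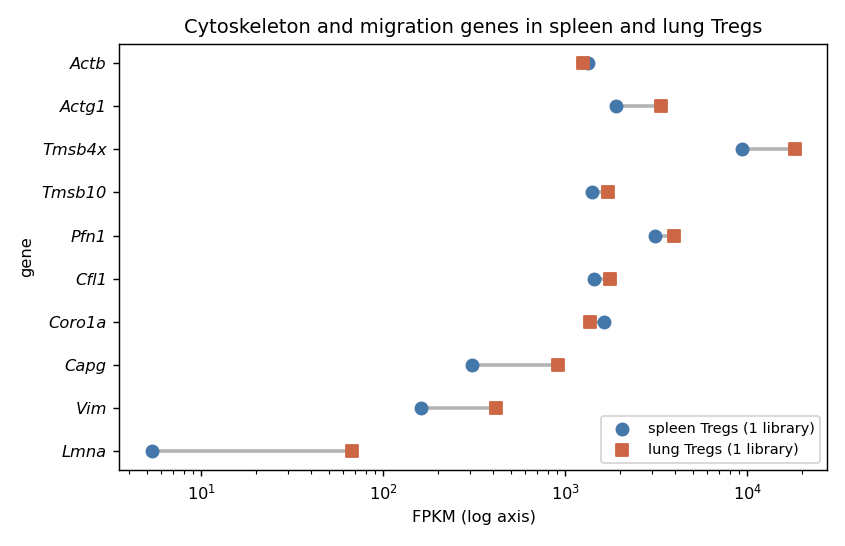
FPKM (log axis) of the 10 genes in the splenic library (circles) and the lung library (squares), 1 library each, joined by a line for each gene. The gap was widest for Lmna, from 5.32 to 67.5 FPKM, and Actb and Coro1a were the genes with the lung symbol at the left.

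Lmna was the gene with the fewest reads behind it. What 1 read is worth was estimated from the values of low genes, which fall on multiples of it, and on this estimate the reads summed to about 9648700 in spleen and 12634500 in lung. On this scale Tmsb4x rested on about 54024 reads in spleen and 120832 in lung, Capg on 3738 and 12678, and Vim on 3311 and 9708. Lmna rested on about 100 reads in spleen and 1440 in lung. Intervals below are 95% intervals from these read numbers. They treat each estimated read as a separate molecule. Copies made by PCR cannot be told from separate molecules, so the intervals can be too narrow even for counting error. They say nothing of the spread between mice. They also hold only for the FPKM as deposited, and cover neither the scaling between libraries nor the placement of reads that match several loci. Rescaling to equal library totals (TPM, below) moved the log2 ratio of Lmna from 3.66 to 3.23, under its interval of 3.37 to 3.97.

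The actins, the building blocks of the filaments, were abundant in both tissues but did not differ alike. Actb lies on the minus strand of chromosome 5 (GRCm38, 142903115 to 142906754, 6 exons in its transcript). It had 1325 FPKM in spleen against 1242 in lung, a log2 ratio of -0.09 with a counting interval from -0.12 to -0.07. Actg1, on the minus strand of chromosome 11 (120345690 to 120348542), had 1894 FPKM in spleen and 3365 in lung. Its ratio was 1.78-fold (1.75 to 1.81), which 19.0% of the abundant genes exceeded. Actg1 was thus the higher of both actins in each tissue, by 1.43 times in spleen and 2.71 times in lung. This ratio of ratios, 1.90, does not depend on how the libraries were scaled to each other. Like the level and share of Actg1, it does depend on how reads that match several loci were placed. Of the windows of Actg1, 54.5% also occurred in other genes, against 2.60% of those of Actb. The sum of the actins stood at 3219 FPKM in spleen and 4607 in lung, and Actg1 made up 58.8% and 73.04% of it. The muscle actins were scarce by comparison. Acta2, of smooth muscle, had 0.979 FPKM in spleen against 2.01 in lung, and Acta1 and Actc1 were listed at 0 in both. Actg2, the γ-actin of enteric smooth muscle, was at 12.2 and 43.3 FPKM, 3.55-fold higher in lung. Of 6 smooth muscle markers, 3 reached 1 FPKM in either library (Acta2, Des and Tagln), and the other 3 were listed at 0 in lung. With the FPKM as deposited, Acta2, Des and Tagln had higher lung values, at a median log2 ratio of 1.04. Des was listed at 0 in spleen. Tagln was close to equal, and its log2 ratio of 0.07 was smaller than the 0.43 by which TPM lowers it. The part of smooth muscle cells in the Actg2 level was not tested. No window of 75 bases of Actg1 occurred in Actg2.

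The monomer-binding proteins included the most abundant of the 10 genes. Tmsb4x, on the minus strand of chromosome X (167207093 to 167209315), encodes the main actin-sequestering peptide of many cells. It was at 9312 FPKM in spleen, where it ranked 1 among all genes, and at 18345 FPKM in lung, where it ranked 2, behind the macrophage gene Lyz2. Tmsb4x alone accounted for 1.55% of the splenic and 2.27% of the lung FPKM. The ratio was 1.97-fold (1.95 to 1.99), just under the 2-fold limit, and 14.4% of abundant genes exceeded it. Tmsb10, on chromosome 6 (72957347 to 72958748, minus strand), had 1395 FPKM in spleen against 1719 in lung, or 1.23-fold (1.19 to 1.27). For each Tmsb4x value in the same library, Tmsb10 stood at 0.150 in spleen and 0.0937 in lung. Pfn1, profilin 1, lies on chromosome 11 (70651850 to 70654644, minus strand) and had 3119 FPKM in spleen against 3953 in lung, 1.27-fold (1.25 to 1.29). Of the abundant genes, 51.5% exceeded the ratio of Pfn1, and 55.0% that of Tmsb10, so both lay at the middle of their class. Of their paralogs, Pfn2 was at 5.11 and 9.24 FPKM, Pfn4 at 0.0879 FPKM in spleen and 0 in lung, Pfn3 and Tmsb15a at 0 in both, and Tmsb15b1 was lower in lung, at 22.9 and 10.4 FPKM.

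Of the proteins that cut, recycle or cap filaments, cofilin and coronin showed small differences and the capping protein a larger one. Cfl1, cofilin 1, which severs ageing filaments, lies on the plus strand of chromosome 19 (5490455 to 5495201). It had 1431 FPKM in spleen against 1766 in lung, 1.23-fold (1.22 to 1.25). Cfl1 and Pfn1 kept nearly the same proportion, with Cfl1 at 0.459 of Pfn1 in spleen and 0.447 in lung. The related depolymerizing factor Dstn differed more, at 16.7 FPKM in spleen and 74.2 in lung (4.44-fold), whereas Cfl2 was at 10.8 and 6.54 FPKM.

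Coro1a, coronin 1A, a coronin of blood cells that is needed for naïve T cell survival and migration, lies on chromosome 7 (126699773 to 126707787, minus strand). It was the one gene besides Actb that was lower in lung, at 1631 FPKM in spleen and 1373 in lung, 1.19-fold lower, with a log2 ratio of -0.25 (-0.27 to -0.22). The other coronins were less abundant and most lay close to equal, with Coro1b at 239 and 261 FPKM, Coro1c at 37.1 and 48.8, Coro7 at 50.3 and 45.1 and Coro2a at 35.5 and 25.9. Coro2b was at 1.02 and 2.60 FPKM, and Coro6 at 0 in spleen and 3.20 in lung. With 3 reads allowed for the splenic 0, Coro6 was about 13.4-fold higher in lung. This fold holds for the FPKM as deposited and leaves out the counting error of the lung value.

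Capg, a gelsolin family protein that caps filaments and is abundant in macrophages, lies on the plus strand of chromosome 6 (72544391 to 72562983). It had 306 FPKM in spleen against 913 in lung, 2.99-fold higher (2.88 to 3.10), and moved from rank 308 to rank 140. For each Coro1a value, Capg stood at 0.187 in spleen and 0.665 in lung, 3.55 times as much. Gsn, gelsolin, was also higher in lung, at 23.9 and 59.2 FPKM. Of the other genes of this family, Flii was at 49.7 and 31.6 FPKM, Svil at 7.69 and 7.74, Scin at 1.25 and 2.65, and Avil and Vil1 were under 0.3 FPKM in spleen and at 0 in lung.

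Both genes of intermediate filaments were over 2-fold higher in lung. Vim, vimentin, on the plus strand of chromosome 2 (13573927 to 13582826), had 161 FPKM in spleen against 416 in lung, 2.58-fold higher (2.48 to 2.69). Lmna, which encodes lamins A and C of the nuclear envelope, lies on chromosome 3 (88480147 to 88509956, minus strand). At 5.32 FPKM in spleen and 67.5 in lung it was 12.7-fold higher (10.4 to 15.7), from rank 8136 to rank 1739 of all genes, and 5.21% of the genes of at least 1 FPKM exceeded its ratio. Relative to Vim within each library, Lmna went from 0.0331 to 0.162. The B-type lamins differed less, with Lmnb1 at 3.88 and 8.32 FPKM (2.14-fold) and Lmnb2 at 6.37 and 8.22. Lmna was therefore below Lmnb2 in the splenic library and above it in the lung library. Lbr, the lamin B receptor, was lower in lung, at 127 and 58.7 FPKM. It and Lmnb1 were the genes past 2-fold among 10 other genes of the nuclear lamina and its linkers.

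**Figure D2:**
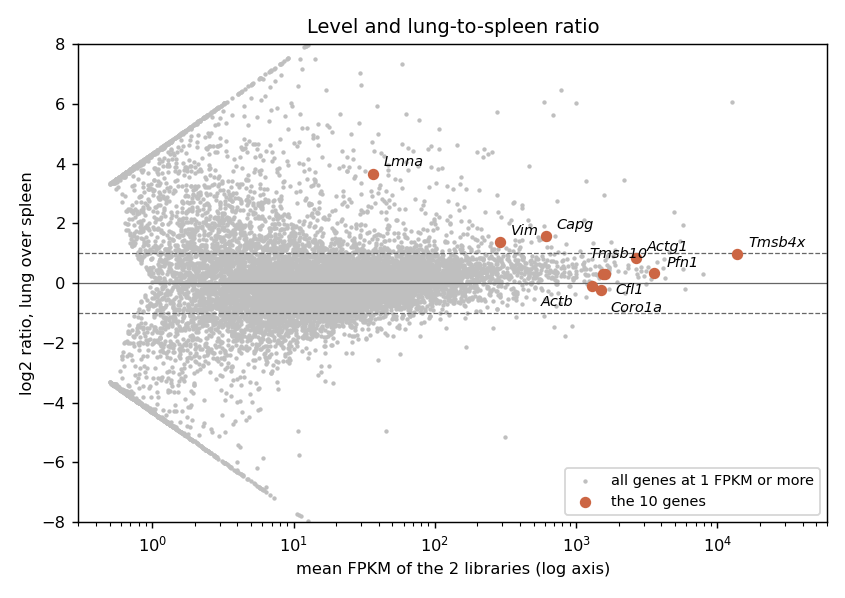
Mean FPKM of both libraries (log axis) against the log2 ratio of lung to spleen for 12094 genes with at least 1 FPKM in either library (grey) and the 10 genes (orange); dashed lines mark 2-fold, and 90 genes lie outside the vertical axis. Capg, Vim and Lmna lie above the upper dashed line, Tmsb4x just under it, and the other 6 between the lines.

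Marker genes of other cell types also differed between the libraries, in both directions. Of 12 macrophage markers, all 12 were higher in lung with the FPKM as deposited, and 9 over 2-fold. Adgre1 (14.6 and 24.3), Mrc1 (7.64 and 9.41) and Csf1r (43.8 and 50.1) stayed under 2-fold. The log2 ratios of Mrc1 (0.30) and Csf1r (0.19) were smaller than the 0.43 by which rescaling to equal library totals (TPM, below) lowers them. The summed level of the 12 markers was 790 FPKM in spleen and 27747 in lung, the greatest part of it Lyz2 (376 and 24947), and none was at 0 in either library. Fibroblast markers summed to 0.290 FPKM in spleen and 166 in lung, with 5 of 8 at 0 in spleen, Col1a1 the highest there (0.129) and Mgp, at 116 FPKM, the highest in lung. Lung epithelial markers summed to 155 and 3488 FPKM, nearly all of the splenic sum being Hopx (142 and 359) and most of the lung sum Scgb1a1 (1.48 and 3021). Of these 8, 6 were over 2-fold higher in lung, whereas Epcam (8.75 and 1.79) and Ager (2.27 and 1.74) were lower. Neutrophil markers summed to 487 and 1214 FPKM, S100a8 being the highest in both (276 and 804). Of these 8, 6 were higher in lung and 2, Ngp and Camp (36.4 and 21.7 FPKM in spleen), were listed at 0 there. Capg, Vim and Lmna are known to be expressed by macrophages and, the latter pair, by fibroblasts, and the part of these cells in their higher lung values was not tested. B cell markers had sums of 257 and 133 FPKM, 0 of 7 being higher in lung, and were led by Cd79b (90.4 and 59.7). Endothelial markers summed to 55.7 and 59.8 FPKM, nearly all of the splenic sum being Pecam1 (54.8 and 31.7). Of the 4 that reached 1 FPKM, the other 3 were over 2-fold higher in lung, among them Ramp2 (0.291 and 18.9), and the median log2 ratio of the 4 was 3.81. The smooth muscle markers, led by Tagln (2.17 and 2.28), summed to 3.19 and 5.78 FPKM. The 9 T cell markers found summed to 4455 and 4281 FPKM with a median log2 ratio of -0.13, led by Cd2 in spleen (912) and Cd3g in lung (1103). Treg markers summed to 1423 and 2011 FPKM, led by Izumo1r in spleen (512) and Tnfrsf18 in lung (919). Of these 7, 3 were higher in lung, and the median log2 ratio was -0.01. Cd4 (195 and 179 FPKM), Cd3e (513 and 369) and Foxp3 (18.7 and 41.8) were present in both libraries. In such pooled samples, fewer cells of a type and less RNA per cell cannot be told apart.

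How the libraries are scaled to each other decided the direction of 4 of the 10 genes. Rescaling to TPM, in which each library sums to the same total, lowered all log2 ratios by 0.43. With it 5 genes instead of 8 were higher in lung, as Tmsb10 (-0.13), Pfn1 (-0.09) and Cfl1 (-0.13) lay on the other side of 0. When the T cell markers were set to a median ratio of 1, log2 ratios went up by 0.13. Actb then came to 0.04, Tmsb4x to 1.11, over 2-fold, and Coro1a stayed lower in lung at -0.12. Vim was at 0.94 in TPM, just under 2-fold. Actg1, Tmsb4x, Capg, Vim and Lmna were higher in lung and Coro1a lower under every one of 11 alternatives. The floors and pseudocounts among these could not change a direction of the 10 genes. The log2 ratios ranged over 0.39 to 0.96 for Actg1, 0.47 to 1.11 for Tmsb4x, 1.14 to 1.71 for Capg, 0.93 to 1.498 for Vim, 3.22 to 3.79 for Lmna and -0.69 to -0.12 for Coro1a.

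**Figure D3:**
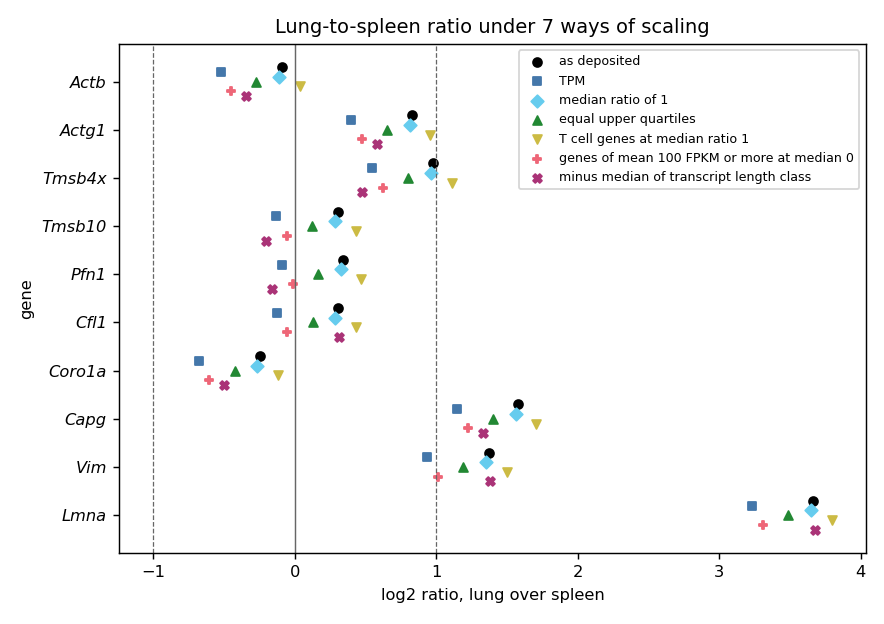
Log2 ratio of lung to spleen of each of the 10 genes with the FPKM as deposited and with 6 other scalings, one symbol each; the solid line marks equal levels and the dashed lines 2-fold. Tmsb10, Pfn1, Cfl1 and Actb have symbols on both sides of the solid line, and the other 6 genes lie on one side.

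The other genes of the actin, microtubule and intermediate filament machinery were listed by function, 149 in 14 lists. Of the 130 that reached 1 FPKM in either library, 20 (15.4%) were over 2-fold higher in lung and 11 (8.46%) over 2-fold lower, against 17.8% and 15.5% of all such genes, and the median log2 ratio was 0.03, close to that of all such genes. The split depended on the scaling, since after rescaling to TPM 11 (8.46%) were over 2-fold higher and 28 (21.5%) over 2-fold lower, against 13.1% and 25.9% of all such genes. The Arp2/3 complex, which nucleates branched filaments, was expressed throughout and close to equal, with 6 of 9 subunit genes higher in lung, none over 2-fold in either direction and a median of 0.34. This median became -0.10 in TPM, -0.11 in TPM without small RNA, -0.02 with abundant genes at a median of 0 and 0.09 relative to genes of their length class. Its most abundant genes were Actr3 (616 and 527 FPKM) and Arpc2 (564 and 712). The genes that switch it on were at a median of -0.23 over 12 genes, which became -0.66 in TPM and -0.06 relative to genes of their length class. Among them Wasl, or N-WASP, was higher (9.03 and 22.2 FPKM) and Wipf1, a partner that protects WASP, was lower (21.2 and 9.94).

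Among formins and Ena/VASP proteins, which elongate unbranched filaments, lung had the higher value for 7 of 10 genes, at a median of 0.32, which became -0.11 in TPM and 0.11 relative to their length class. Evl (67.0 and 21.2 FPKM) and Fmnl1 (45.6 and 18.5) were over 2-fold lower and Diap3 (0.437 and 1.23) over 2-fold higher. Of 16 genes of filament capping, turnover and bundling, only Tagln2, a transgelin that stabilizes filaments, was over 2-fold higher (214 and 570 FPKM) and only Add1, an adducin, over 2-fold lower (114 and 45.1). Myosins had a median of 0.63 (0.20 in TPM and 0.36 relative to their length class), and Myo1f was the myosin above 10 FPKM in lung that was over 2-fold higher, at 21.4 and 63.9 FPKM. The proteins that link filaments to membrane and adhesions had a median of -0.29 (-0.72 in TPM and -0.06 relative to their length class), with Actn1, α-actinin 1, at 18 and 7.82 FPKM. Tubulins had a median of -0.28 (-0.71 in TPM and -0.50 relative to their length class), with Tubb6 higher (4.90 and 22.5 FPKM) and Tubb4b lower (127 and 58.5).

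**Figure D4:**
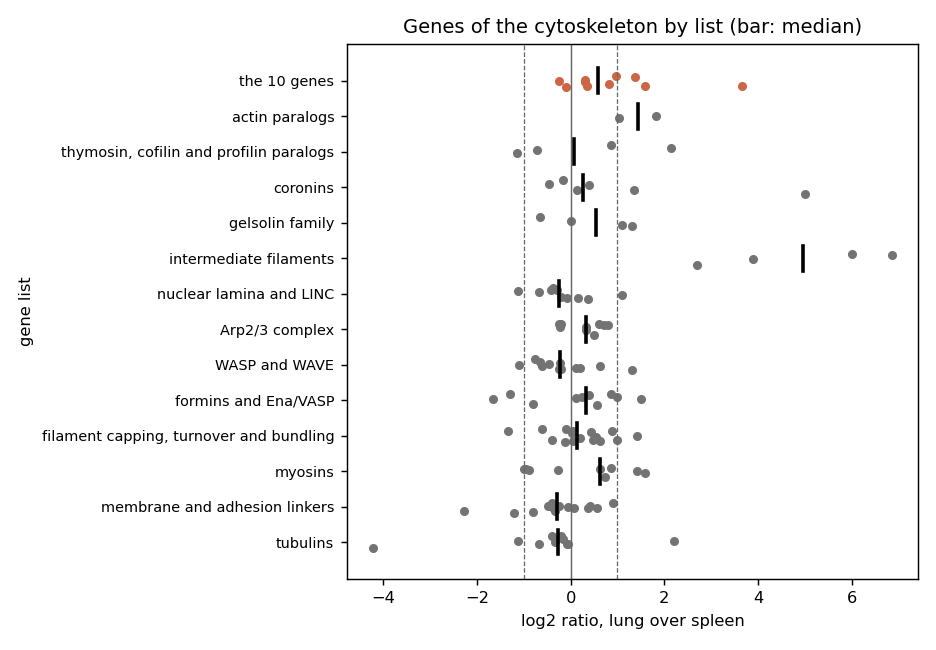
Log2 ratio of lung to spleen for the 10 genes (orange) and for the lists of other cytoskeleton genes described here that reached 1 FPKM in either library (grey); the vertical bar is the median of each list, and dashed lines mark 2-fold. The list of other intermediate filament genes stands farthest to the right, with a median of 4.95 over 4 genes. Among them Krt8, Krt19 and Des were listed at 0 FPKM in spleen. The size of this median therefore depends on the floor, the value to which low levels were raised. It was 8.27 with a floor of 0.01 FPKM and 2.17 with a floor of 1 FPKM.

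Besides Vim and the lamins, the listed intermediate filament genes were those of other tissues and all of low level. Krt19, Krt8 and Krt18, keratins of epithelial cells, were at 11.7, 6.44 and 3.14 FPKM in lung. In spleen Krt18 was at 0.486 FPKM and the other keratins at 0. With 3 reads allowed for the splenic 0, Krt19 was about 55.1-fold and Krt8 about 38.9-fold higher in lung. These folds hold for the FPKM as deposited and leave out the counting error of the lung values. Des, desmin of muscle, was at 0 in spleen and 1.49 FPKM in lung, and Nes, nestin, at 0.0163 and 0.890. Gfap, Prph and Synm were listed at 0 in both. Krt18 is also one of the epithelial markers counted above. The part of epithelial cells and fibroblasts in these levels was not tested.

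The ratios varied with transcript length. For 796 genes with transcripts under 1 kb that reached 10 FPKM in either library, the log2 ratio had a median of 0.51, and this was 0.25 at 1 to 2 kb, -0.01 at 2 to 3 kb, -0.24 at 3 to 5 kb and -0.29 at 5 kb or more. Across these 6994 genes of both libraries, the Spearman correlation of length and ratio was -0.33, a description over genes, which are not independent replicates. By median transcript length the 10 genes are short, from 623 nt (Tmsb10) to 2354 nt (Cfl1), and none falls in the classes above 3 kb. The Lmna transcript with the longest coding sequence has 3156 nt, so the length class of Lmna depends on this choice. Among the listed cytoskeleton genes and the 10 genes together, 8 of 10 were higher in lung under 1 kb, where 77.9% of all genes were, and 1 of 13 at 5 kb or more, where 32.8% of all genes were. The long genes Flna, filamin A (141 and 107 FPKM), Tln1, talin 1 (53.7 and 30.6), and Myh9, the heavy chain of non-muscle myosin (59.0 and 31.8), were lower in lung, whereas Myl6, the light chain of the same motor, was higher (1169 and 2138). Minus the median of their length class, the log2 ratios were 0.47 for Tmsb4x, -0.20 for Tmsb10, -0.16 for Pfn1, 0.58 for Actg1 and -0.34 for Actb, whereas Lmna (3.67), Vim (1.38) and Cfl1 (0.31) hardly moved. Whether the length trend comes from the RNA, the library preparation or the tissue was not tested.

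**Figure D5:**
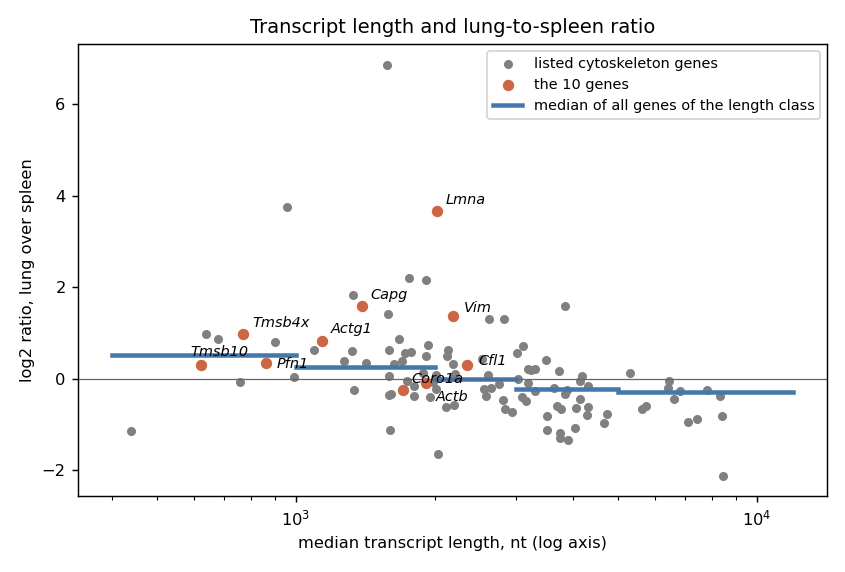
Median transcript length (log axis) against the log2 ratio of lung to spleen for listed cytoskeleton genes that reached 10 FPKM in either library (grey) and the 10 genes (orange), with the median of all such genes of each length class as a blue line. The blue line steps down from 0.51 under 1 kb to -0.29 at 5 kb or more, and Lmna, Capg, Vim, Actg1, Tmsb4x and Cfl1 lie above it.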

How the data were processed

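Bulk RNA-seq of sorted GFP+CD4+ cells was analysed, 1 library from spleen and 1 from lung of BLM-treated FDG mice, grouped by tissue as labelled. The authors prepared cDNA with SMART-Seq HT, sequenced 75-base single-end reads, mapped them (genome mm10; TopHat 2.1.1 with Bowtie2 2.2.8, and SAMtools 0.1.18) and deposited FPKM values made by Cuffdiff 2.2.1. The annotation and the scaling between libraries are not given in the sources used here.

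Values under 0.1 FPKM were set to 0.1 and lung was divided by spleen, on a log2 scale. Folds over 2 were counted beside the same counts over all genes. The members and lists were chosen with earlier results of these data known. Named genes were the 10 genes, their listed paralogs, up to 3 listed genes of each list and direction over 2-fold with at least 10 FPKM, the highest marker of each cell type in each library, and Cd4, Cd3e and Foxp3. Others (Adgre1, Mrc1, Csf1r, Ramp2, Ngp, Camp, Epcam, Ager, Diap3, Myl6, Flna, Tln1, Myh9, Actr3, Arpc2, Snx32, Gm12715 and Gm9844) were named after their values were seen. The genes of 1 list enter the counts over all lists but are not reported here by list or name.

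Lengths came from GENCODE M21 transcripts tied to RefSeq, found for 23016 symbols (94.5%). Reads were estimated from effective lengths (fragments of 200 ± 80 bases, at least 73) and the most shared product of FPKM and length, which gave a value of 1 read in lung 0.881 times that in spleen. The code was checked on data simulated with the same read model. Such a check cannot test the assumed fragment lengths, PCR copies, reads that match several loci or the scaling between libraries. Python 3.11.15, numpy 2.4.6, pandas 2.3.3 and scipy 1.17.1 were used.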

Additional observations from a re-analysis of the deposited data

How the results depend on the processing

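The median log2 ratio of the 10 genes, 0.59 with the FPKM as deposited, was 0.15 in TPM, 0.41 at equal upper quartiles and 0.71 with T cell genes at a median ratio of 1. Alternatives added after seeing the data gave 0.14 (TPM without small RNA), 0.23 (abundant genes at a median of 0) and 0.39 (minus the median of the length class). Of the 10 genes, 5 were higher in lung in TPM, with or without small RNA, and 5 with abundant genes at a median of 0. Genes over the fold limit in lung were 5 at 1.5-fold and 1 at 3-fold, against 3 at 2-fold. Listed cytoskeleton genes over 2-fold higher and lower, 20 and 11 as reported, were 11 and 28 in TPM by either sum, 13 and 23 with abundant genes at a median of 0, 25 and 8 with T cell genes at a median ratio of 1, and 9 and 9 with at least 10 FPKM. Floors and pseudocounts could not change a direction of the 10 genes, since all lie above the floors and a pseudocount is added to both values. None of Capg, Vim and Lmna changed sign under any alternative. No paired analysis was possible because each tissue has 1 library, and for the same reason none could be left out. Depth limits the Lmna ratio most, through about 100 splenic reads.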
